A study of Homo sapiens with 34 samples.

Results

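Kinesins are motor proteins that walk along microtubules, or take them apart, using the energy of ATP. The kinesin genes described here are the protein-coding rows of the RNA-seq table whose symbol is KIF followed by a number, or KIFC followed by a number. The rule found 41 of 28071 rows (16834 of them protein coding). Of these, 13 were placed by their known roles among mitotic kinesins, 15 among transport kinesins and 13 among others, and 40 of the 41 were also listed in the table of RNA immunoprecipitation (RIP), which lacks KIF19. All cells were LNCaP, a long-established line from a human prostate cancer. Androgen-independent cells (AI) were kept in RPMI1640 medium with charcoal-stripped serum, from which steroids are largely removed, and androgen-dependent cells (AD) in RPMI1640 medium. RNA-seq of poly-A RNA covered AI and AD cells transfected by lipofection with siEZH2, an siRNA that targets EZH2, or with a mock siRNA and collected at 24 h, and untreated AI and AD cells, with 2 libraries in each of the 6 groups. RIP after ultraviolet crosslinking used an antibody to EZH2, the methyltransferase of Polycomb repressive complex 2, or control IgG, with 2 libraries of each in AI and in AD cells. The 7 lists of chromatin immunoprecipitation (ChIP) peaks were for EZH2 (1 in AI, 2 in AD cells) and for H3K27me3, the histone mark that EZH2 places (2 in AI, 2 in AD cells). No label states that the replicates came from different cultures, and the p-values therefore cover no more than the spread among these libraries, part of which may be technical. The transfection protocol in the labels speaks of an androgen-independent line only, while libraries titled AD also carry siRNA names, so what is said of transfected AD cells holds only as far as those titles do.

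Mitotic kinesins build and move the spindle, align chromosomes and prepare the cell for cytokinesis, and their genes are expressed mainly in dividing cells, around the G2 phase and mitosis. Many of them are controlled through promoter elements called the CHR and the CCAAT box, which bind the DREAM, B-MYB and FOXM1 complexes and the factor NF-Y. Transport kinesins carry vesicles, organelles, RNA and protein complexes, mostly toward the cell periphery, and include kinesin-1 (KIF5), kinesin-2 (KIF3, KIF17) and kinesin-3 (KIF1, KIF13, KIF16B) families.

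Promoters of mitotic kinesins held TTTGAA and CCAAT in a larger share than those of the other kinesins, which is a description with no test. RefSeq promoter sequences (GRCh38.p14, from 250 bases before to 50 bases after the start) were matched for 33 of the 41 genes. Some genes, such as KIF1A and KIF1B, have several starts and so had more bases searched. Each gene was counted once, as holding a motif if any of its windows did. Both strands were searched for TTTGAA, the core of the CHR, for CCAAT, and for TTTGGCGC, an E2F element. None of the 3 motifs contains another. TTTGAA was found in 10 of 13 mitotic promoters (76.9%), 1 of 11 transport promoters (9.09%) and none of 9 others. Among all 15843 protein-coding genes with such windows the share was 15.8%. CCAAT was found in 11 of 13 mitotic promoters (84.6%), 4 of 11 transport promoters (36.4%), 3 of 9 others (33.3%) and 42.1% of all. Both were found together in 9 of 13 mitotic promoters (69.2%) and 8.17% of all. The E2F element was found in KIF15 alone, against 1.09% of all these genes. The 3 mitotic kinesins without TTTGAA in this window were KIF20A, KIF22 and KIF2C. A match describes letters and is not a bound site. The promoters of 5 genes are shown because they carry this contrast, with capitals marking TTTGAA or CCAAT on either strand (TTCAAA and ATTGG on the other strand). KIF23 (chr15:69414099-69414398, plus strand) and KIF11 (chr10:92592880-92593179, plus strand) hold both elements. KIF20A (chr5:138178862-138179161, plus strand) holds 2 CCAAT boxes and no TTTGAA. KIF4B (chr5:155013505-155013804, plus strand) is an intronless copy of KIF4A that keeps both. KIF5B (chr10:32056376-32056675, minus strand) is the transport kinesin with TTTGAA.
KIF23: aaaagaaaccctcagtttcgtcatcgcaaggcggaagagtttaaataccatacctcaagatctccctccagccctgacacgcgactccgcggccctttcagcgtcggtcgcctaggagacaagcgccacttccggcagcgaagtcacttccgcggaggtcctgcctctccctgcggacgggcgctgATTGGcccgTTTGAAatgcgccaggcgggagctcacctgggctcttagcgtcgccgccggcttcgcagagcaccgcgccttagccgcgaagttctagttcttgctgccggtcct
KIF11: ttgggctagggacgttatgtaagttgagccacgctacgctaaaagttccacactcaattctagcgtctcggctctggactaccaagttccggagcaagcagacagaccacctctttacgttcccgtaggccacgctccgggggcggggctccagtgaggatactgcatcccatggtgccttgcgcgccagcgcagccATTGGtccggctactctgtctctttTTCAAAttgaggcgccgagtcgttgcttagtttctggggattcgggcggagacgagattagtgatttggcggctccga
KIF20A: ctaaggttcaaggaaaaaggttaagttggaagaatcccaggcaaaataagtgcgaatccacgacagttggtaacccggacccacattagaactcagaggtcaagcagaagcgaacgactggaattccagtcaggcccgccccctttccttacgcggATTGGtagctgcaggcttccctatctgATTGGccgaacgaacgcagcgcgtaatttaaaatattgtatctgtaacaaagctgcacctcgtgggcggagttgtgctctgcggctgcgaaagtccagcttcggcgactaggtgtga
KIF4B: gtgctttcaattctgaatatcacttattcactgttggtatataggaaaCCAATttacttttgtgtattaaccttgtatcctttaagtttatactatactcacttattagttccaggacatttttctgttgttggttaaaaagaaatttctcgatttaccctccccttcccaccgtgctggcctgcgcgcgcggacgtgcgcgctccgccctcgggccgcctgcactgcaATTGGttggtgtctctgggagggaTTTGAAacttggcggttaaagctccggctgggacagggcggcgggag
KIF5B: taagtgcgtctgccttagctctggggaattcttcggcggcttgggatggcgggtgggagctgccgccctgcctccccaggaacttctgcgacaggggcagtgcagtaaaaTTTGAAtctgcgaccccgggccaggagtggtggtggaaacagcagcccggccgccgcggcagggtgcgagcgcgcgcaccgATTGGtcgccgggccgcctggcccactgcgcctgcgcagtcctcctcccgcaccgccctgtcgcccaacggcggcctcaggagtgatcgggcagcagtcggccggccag
In KIF23 the TTTGAA lies 55 bases and the CCAAT box 64 bases before the start, and in KIF11 they lie 28 and 53 bases before it. In KIF5B the distances are 140 and 59 bases, so the order of the elements is the opposite of that in both mitotic genes.

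Read depth was estimated from the steps between low values in units of 1e6 reads, at about 7.56 to 12.7 in transfected RNA-seq libraries, 17.4 to 51.7 in untreated ones, 4.7 to 8.15 in EZH2 RIP and 0.0814 to 1.86 in IgG. These estimates are approximate. Replicates correlated at 0.973 to 0.990 (Pearson, across genes) in RNA-seq, at 0.861 (AI) and 0.885 (AD) in EZH2 RIP, and at 0.557 (AI) and 0.660 (AD) in IgG. Luminal prostate markers were present (9 of 9), while 6 of 7 blood or stroma markers and 2 of 3 basal markers stayed below 0.5 RPKM in every RNA-seq library. The exceptions, VWF and the basal KRT14, were highest in untreated AD cells. VWF had 3.53 and 3.28 RPKM there, against 0.4 and 0.5 RPKM in untreated AI cells. KRT14 had 3.73 and 4.56 RPKM there, against 1.07 and 1.25 RPKM in untreated AI cells. RPKM counts reads scaled by the length of the gene and the reads of its library. The share of RPKM from mitochondrially encoded genes was 2.1 to 4.07% in transfected and 18.4 to 33.5% in untreated libraries, so that it moved with transfection, and its part in the results below was not tested. Among untreated libraries it was 19.6% (AI) and 18.4% (AD) in replicate 1, and 33.5% (AI) and 32.6% (AD) in replicate 2. EZH2, the siRNA target, had 3.6 and 4.33 RPKM in AI siEZH2 and 11.52 and 10.73 RPKM in the libraries labelled AD siEZH2, against 7.07 and 5.44 RPKM in AI mock and 10.95 and 12.48 RPKM in AD mock cells. The log2 difference was -0.59 in AI (limma adjusted p = 0.126) and -0.07 in AD (limma adjusted p = 1), so neither passed the threshold of 0.05. Of the 41 kinesin genes 21 overlap another annotated gene, such as KIF20A with CDC23, KIF15 with TMEM42, KIF2A with DIMT1, KIF24 with UBAP1 and NUDT2, and KIF1C, KIF5C and KIF23 with antisense genes. Whether counting used strand is not given in the sources used here, so reads of such pairs may not be told apart and these values are uncertain to that extent. In bulk RNA, fewer cells of a kind and less RNA per cell cannot be told apart.

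Kinesin RNA levels spanned the range from none to over 100 RPKM, and a few genes made up most of it. At or above 10 RPKM in all 12 libraries were 6 genes, namely the mitotic KIF22, KIF2C, KIFC1 and KIF20A and the transport kinesins KIF1C and KIF5B. In the build GRCh38, KIF22 (ENSG00000079616.12) lies at chr16:29790751-29805385, KIF2C (ENSG00000142945.12) at chr1:44739837-44767767 and KIFC1 (ENSG00000237649.7) at chr6:33391461-33409896. KIF1C (ENSG00000129250.11) lies at chr17:4997950-5028401 and KIF5C (ENSG00000168280.16) at chr2:148875227-149026759. The chromokinesin KIF22, which pushes chromosome arms away from the poles, had the highest single value at 137.5 RPKM and the lowest at 24.72 RPKM. KIF2C, a microtubule depolymerase that corrects wrong attachments at centromeres, ranged over 22.88 to 70.6 RPKM. KIFC1, a minus-end motor that focuses spindle poles and clusters extra centrosomes, ranged over 20.97 to 43.12 RPKM. Together these 3 genes, chosen after their levels were seen, made up 83.8 to 87.7% of the mitotic RPKM in transfected AI libraries, 76.3 to 80.1% in transfected AD libraries, 64.2 to 69.7% in untreated AI and 68.2 to 73.5% in untreated AD libraries. The core spindle and cytokinesis motors were much lower per length. KIF11, which slides spindle microtubules apart, had a median of 3.87 RPKM over the 12 libraries, KIF23, a subunit of centralspindlin, 5.53 RPKM, and KIF4A, a chromokinesin of the central spindle, 6.27 RPKM. Apart from KIF4B, listed at or below 0.03 RPKM, the lowest mitotic motors were KIF14, which acts with citron kinase in cytokinesis (0.32 to 0.9 RPKM), and KIF18A, which dampens chromosome movements (0.29 to 1.07 RPKM).

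Among transport kinesins, KIF1C had a median of 59.2 RPKM, KIF5B 27.2 RPKM, KIF3B 12.4 RPKM and KIF1A, better known as a motor of synaptic vesicle precursors in neurons, 10.9 RPKM. Kinesin-1 heavy chains were therefore represented by KIF5B and, at a median of 4.83 RPKM, by KIF5C, while KIF5A, a neuronal heavy chain, stayed at or below 0.07 RPKM. Of the kinesin-2 subunits, KIF3B was the highest, KIF3C had a median of 6.33 RPKM and KIF3A, with which KIF3B forms its motor, stayed at or below 0.53 RPKM. Below 0.5 RPKM in every library were 6 genes (KIF4B, KIF5A, KIF6, KIF19, KIF21B and KIF26B). The other 29 lay between these bands.

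**Figure D1:**
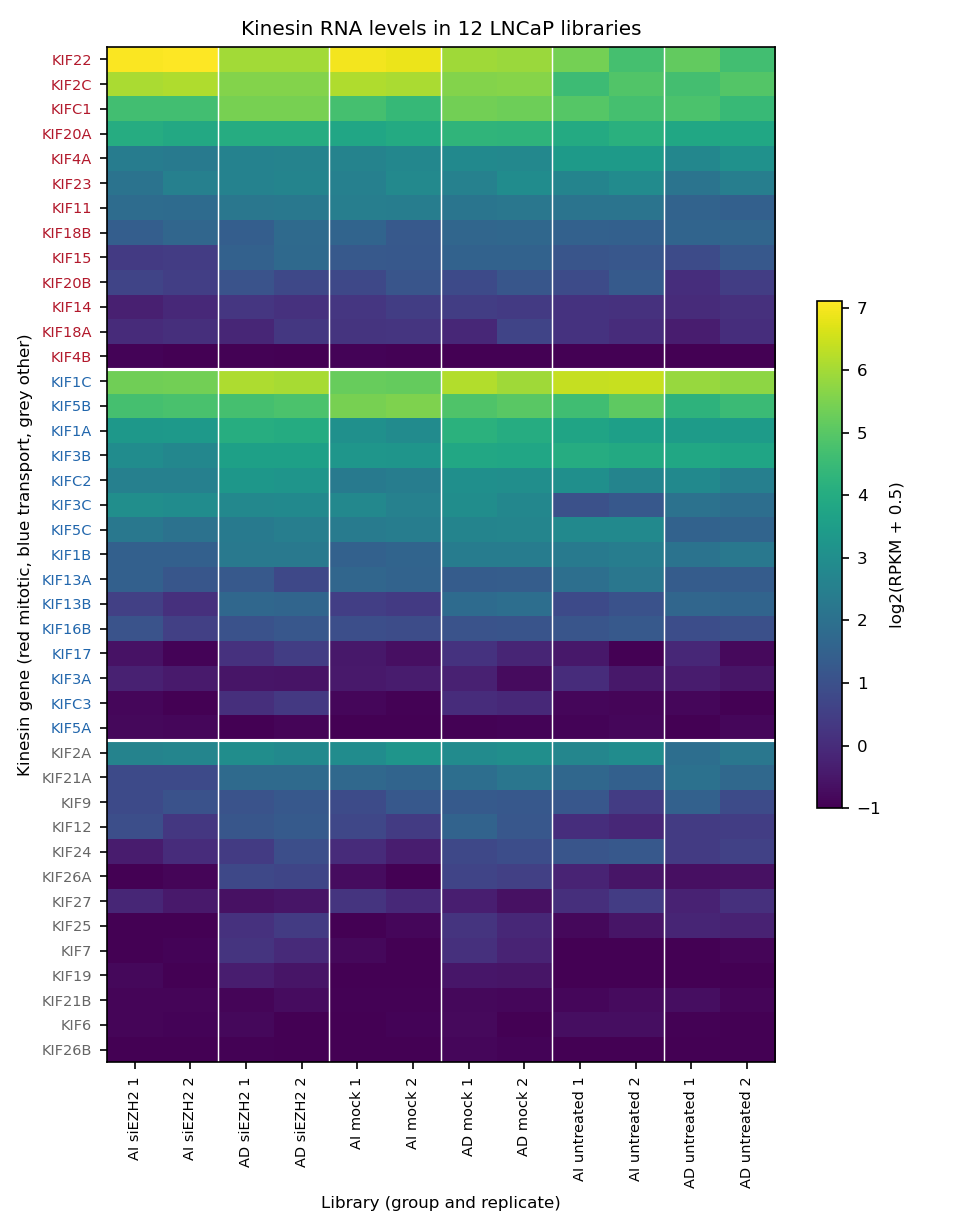
RNA level of each of the 41 kinesin genes (rows) in the 12 RNA-seq libraries (columns) as log2(RPKM + 0.5), with rows grouped by role and ordered by level. KIF22, KIF2C, KIFC1, KIF1C and KIF5B form the bright rows, and KIF22 is brightest in the transfected AI libraries, where it had 116.72 to 137.5 RPKM.

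The balance between roles differed among the groups. Mitotic genes held 68.6 and 69.5% of all kinesin RPKM in AI siEZH2 cells, against 52.6 and 53.1% in AD siEZH2 cells. In mock-transfected cells they held 65.7 and 64.4% in AI, against 51.3 and 52.6% in AD, and in untreated cells 43.4 and 40.3% in AI, against 46.9 and 45.9% in AD. In this share the AI libraries were thus above the AD libraries after transfection and below them in untreated cells. The mitotic sum itself was higher in untreated AI, at 137.06 and 126.63 RPKM, against 119.05 and 111.85 RPKM in untreated AD cells. Transport genes summed to 164.72 and 173.18 RPKM in untreated AI, against 122.93 and 120.25 RPKM in untreated AD cells. The 10 mitotic genes other than KIF22, KIF2C and KIFC1 summed to 36.57 and 39.78 RPKM in AI mock and 43.07 and 45.69 RPKM in AD mock cells, so the higher mitotic sum of AI mock cells did not lie in these 10, and of the 3 abundant genes KIF22 and KIF2C were higher and KIFC1 lower in AI mock cells.

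**Figure D2:**
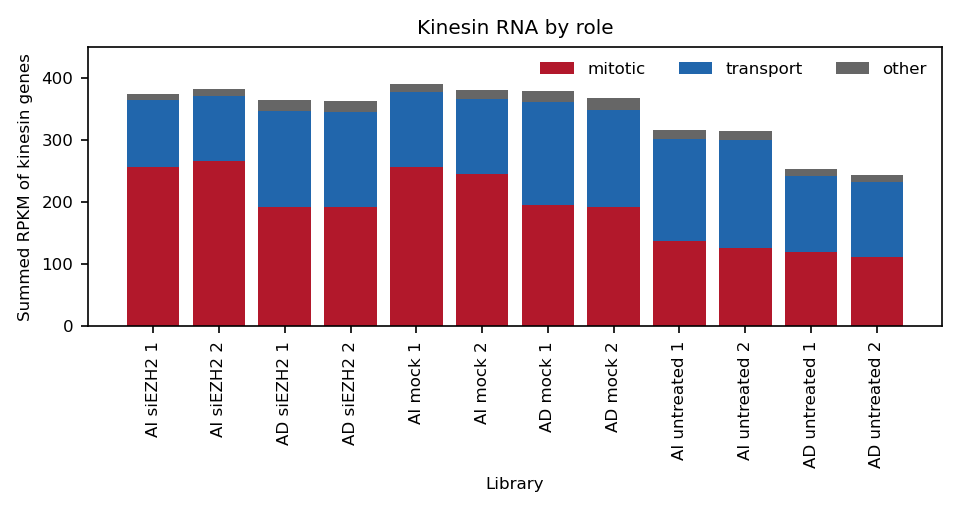
Summed RPKM of mitotic, transport and other kinesin genes in each RNA-seq library (stacked bars from 0, 1 bar per library). The mitotic part is tallest in the 4 transfected AI libraries, at 245.14 to 265.59 RPKM, and lies at 111.85 to 137.06 RPKM in the 4 untreated libraries.

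The comparison of untreated AI with untreated AD cells asks how kinesin RNA differs between the androgen-independent and androgen-dependent states without transfection. More kinesins were higher than lower in AI cells, and the differences were mostly under 1 on the log2 scale. Changes were tested with limma on log2(RPKM + 0.5) over the 14227 genes with at least 0.5 RPKM in at least 2 libraries, with adjustment over all of them, and 34 of the 41 kinesins passed that filter. The 7 that did not were KIF4B, KIF19, KIF21B, KIF26B, KIF6, KIF3A and KIF5A. The fit had no replicate term, while deviations of same-numbered untreated AI and AD libraries correlated at 0.701 across genes. Called either way were 11 of the 34, against 34.6% of all genes tested. In untreated AI cells 9 (26.5%) were higher, against 22.2% of all genes tested, and 2 (5.88%) were lower, against 12.4% of all. The kinesin median was 0.21 and the median of all genes 0.13, so the kinesins as a whole lay close to the background. Of all calls 64.2% were higher in AI, against 50.5% with quantile normalization and 48.2% with scaling by trimmed means (TMM), under both of which 6 kinesins were higher and 2 lower.

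Among the mitotic kinesins 3 of 12 were higher in untreated AI cells and none lower. KIF11 had 3.8 and 3.81 RPKM in AI, against 2.48 and 2.3 RPKM in AD cells. The groups did not overlap, and the log2 difference was 0.58 (SE 0.11, limma adjusted p = 0.00375). KIF20B, a motor needed late in cytokinesis, had 1.31 and 1.97 RPKM in AI, against 0.55 and 0.88 RPKM in AD cells, a difference of 0.81 (SE 0.24, limma adjusted p = 0.0245). KIF4A had 10.25 and 10.19 RPKM in AI, against 6.3 and 8.04 RPKM in AD cells (log2 difference 0.49, SE 0.13, limma adjusted p = 0.0164), and lost its call under both scalings. The cytokinesis motors KIF23 and KIF20A, which brings the chromosomal passenger complex to the central spindle, had values in the same direction that did not pass. KIF23 had 5.83 and 7.01 RPKM in AI, against 3.89 and 5 RPKM in AD cells, and KIF20A had 14.99 and 17.04 RPKM in AI, against 13.67 and 13.69 RPKM in AD cells. The 3 most abundant mitotic genes showed little difference here. KIF22 had 41.98 and 25.93 RPKM in AI, against 35.15 and 24.72 RPKM in AD cells, and its replicates lay farther apart than the groups. Its replicate 1 was above replicate 2 in both states, and AI was above AD within each replicate number.

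Transport kinesins moved both ways, with 4 of 13 higher and 2 lower. KIF5C had 6.64 and 6.63 RPKM in AI, against 2.43 and 2.59 RPKM in AD cells. Its log2 difference of 1.25 (SE 0.12, limma adjusted p = 7.35e-05) had the largest size among the kinesins in untreated cells. KIF1C, a motor of vesicles and RNA, had 84.25 and 85.89 RPKM in AI, against 57.02 and 52.42 RPKM in AD cells, without overlap (log2 difference 0.63, SE 0.10, limma adjusted p = 0.00146). KIF13A, which moves endosomes, had 3.4 and 4.12 RPKM in AI, against 2.06 and 2.07 RPKM in AD cells (log2 difference 0.73, SE 0.19, limma adjusted p = 0.0161). KIF5B, the widely expressed kinesin-1 heavy chain, had 24.12 and 34.1 RPKM in AI, against 18.27 and 22.65 RPKM in AD cells, and its difference of 0.49 (SE 0.16, limma adjusted p = 0.0446) did not pass under either scaling. The 2 lower genes were KIF3C and KIF13B. KIF3C, a kinesin-2 subunit, had 1.51 and 1.87 RPKM in AI, against 3.67 and 3.3 RPKM in AD cells, a difference of -0.87 (SE 0.14, limma adjusted p = 0.00154). KIF13B had 1.25 and 1.58 RPKM in AI, against 2.68 and 2.53 RPKM in AD cells, a difference of -0.70 (SE 0.17, limma adjusted p = 0.0109). KIF3B, the most abundant kinesin-2 subunit, had 15.89 and 14.63 RPKM in AI, against 13.76 and 13.09 RPKM in AD cells, and did not pass. Among the others, KIF2A, a depolymerase of spindle poles and of growing neurites, was higher in AI with 6.07 and 7.2 RPKM, against 3.34 and 4.16 RPKM in AD cells (log2 difference 0.75, SE 0.15, limma adjusted p = 0.00481). KIF24, which restrains the growth of cilia, was also called higher (log2 difference 0.70, SE 0.23, limma adjusted p = 0.0370), and was not called under either scaling or in any of the 4 fits that left out a library. Without AI untreated replicate 2 or without AD untreated replicate 1 the count of higher kinesins was 4, and without AI untreated replicate 1 or AD untreated replicate 1 the count of lower ones was 1. In a fit of these 4 libraries alone 1 kinesin was higher, KIF5C, and none lower.

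The proteins that work with these motors were read beside them. Of 25 mitotic partners (among them PLK1, AURKB and CENPE) 8 (32.0%) were higher and 1 (4.0%) lower in untreated AI cells, beside 22.2% higher and 12.4% lower among all genes. PLK1, a mitotic kinase, had 28.49 and 27.05 RPKM in AI, against 15.93 and 21.3 RPKM in AD cells (log2 difference 0.58, limma adjusted p = 0.0148). AURKB, the kinase of the chromosomal passenger complex, was the lower one, with 29.85 and 21.87 RPKM in AI, against 37.96 and 32.51 RPKM in AD cells (log2 difference -0.45, limma adjusted p = 0.0396). Of 21 tested transport partners 8 (38.1%) were higher and 3 (14.3%) lower. KIFAP3, which joins the KIF3 motor to cargo, had 4.99 and 4.75 RPKM in AI, against 1.72 and 1.49 RPKM in AD cells (log2 difference 1.35, limma adjusted p = 6.75e-05). Of 20 tested subunits and partners of dynein and dynactin, the motor that walks the opposite way, 10 (50.0%) were higher and none lower. Among 11 tested regulators of mitotic genes 3 (27.3%) were higher, RB1, RBL2 and FOXM1, and none lower.

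The comparison of AI with AD cells was also made in mock-transfected libraries, where it came out differently. KIF22, KIF2C and KIF5B were higher in AI cells, while 7 of 13 transport kinesins (53.8%) were lower, against 43.5% of all genes. In mock-transfected AI cells 3 of 34 kinesins (8.82%) were higher, against 12.2% of all genes, and 14 (41.2%) were lower, against 43.5% of all (either way 17, against 55.7%). The median of all genes was itself -0.41 here, and the kinesin median was -0.27. Of all calls 21.9% were higher in AI, against 49.4% both with quantile normalization and with TMM, which counted 10 kinesins higher and 5 lower, and 8 higher and 9 lower. Calls in the same direction under both scalings were kept by 7 of the 17, a count made after the data were seen. They were KIF22, KIF2C and KIF5B (higher) and KIF13B, KIF1A, KIF1C and KIF26A (lower). Of the tested kinesins 5 (KIF26A, KIF17, KIF25, KIFC3 and KIF7) passed the filter on low values only through transfected AD libraries, and 4 of them are among the 14 lower ones, so those calls follow in part from the filter.

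KIF22 had 124.59 and 116.72 RPKM in AI mock, against 62.08 and 59.36 RPKM in AD mock cells, with a log2 difference of 0.98 (SE 0.21, limma adjusted p = 0.00323). KIF2C had 70.07 and 67.67 RPKM in AI mock, against 48.27 and 48.9 RPKM in AD mock cells, a difference of 0.50 (SE 0.13, limma adjusted p = 0.00967). Neither gene's groups overlapped, whereas both genes' groups overlapped in untreated cells. KIFC1 had 25.87 and 20.97 RPKM in AI mock, against 41.31 and 39.1 RPKM in AD mock cells. Its difference of -0.77 (SE 0.14, limma adjusted p = 0.00137) was in the opposite direction from that of KIF22 and KIF2C, and was -0.25 and not called with TMM. KIF20A had 13.53 and 15.14 RPKM in AI mock, against 19.25 and 18.96 RPKM in AD mock cells, a difference of -0.40 (SE 0.11, limma adjusted p = 0.00944), which is close to the shift of all genes and turned to 0.11 with TMM. KIF11 had 5.03 and 4.91 RPKM in AI mock, against 3.93 and 4.18 RPKM in AD mock cells, and KIF23 had 5.24 and 6.5 RPKM in AI mock, against 5.46 and 7.26 RPKM in AD mock cells. Neither passed. Relative to the median of all genes, 11 of the 12 tested mitotic kinesins lay above it and their median was -0.08.

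Transport kinesins had a median of -0.59, with 1 of 13 higher, 7 lower (53.8%, against 43.5% of all genes) and 8 below the median of all genes. KIFC3, among the 7 lower ones, passed the filter only through transfected AD libraries. KIF5B was the higher one, with 42.65 and 45.62 RPKM in AI mock, against 28.87 and 32 RPKM in AD mock cells (log2 difference 0.53, SE 0.16, limma adjusted p = 0.0199). KIF1C had 37.04 and 35.92 RPKM in AI mock, against 71.46 and 61.43 RPKM in AD mock cells, a difference of -0.85 (SE 0.10, limma adjusted p = 9.20e-05). This is the reverse of its order in untreated cells, and in neither case did the groups overlap. KIF1A had 7.81 and 7.06 RPKM in AI mock, against 17.61 and 15.78 RPKM in AD mock cells (log2 difference -1.12, SE 0.11, limma adjusted p = 2.80e-05). KIF1B, a motor of mitochondria and vesicles, had 2.36 and 2.59 RPKM in AI mock, against 4.74 and 4.81 RPKM in AD mock cells (log2 difference -0.83, SE 0.12, limma adjusted p = 0.000281). The kinesin-3 genes KIF1A, KIF1B, KIF1C and KIF13B were called lower, beside 43.5% of all genes. KIF1B lost its call with quantile normalization, and KIF1C was at -0.33 with TMM. KIF13A and KIF16B of the same family did not pass, and KIF13A had 2.68 and 2.48 RPKM in AI mock, against 2.06 and 2.13 RPKM in AD mock cells. KIF13B had the largest size of the lower kinesin-3 genes, with 0.91 and 0.8 RPKM in AI mock, against 3.06 and 3.33 RPKM in AD mock cells (log2 difference -1.45, SE 0.17, limma adjusted p = 7.77e-05). It was lower in AI in untreated cells too. KIF3B had 9.15 and 8.88 RPKM in AI mock, against 14.16 and 13.45 RPKM in AD mock cells (log2 difference -0.59, SE 0.11, limma adjusted p = 0.00137), and KIFC2, a kinesin studied mainly in mouse neurons, had 4.62 and 4.87 RPKM in AI mock, against 7.65 and 7.6 RPKM in AD mock cells (log2 difference -0.63, SE 0.16, limma adjusted p = 0.00638). Neither KIF3B nor KIFC2 passed under either scaling. Among the others 5 of 9 were lower (55.6%, against 43.5% of all genes) and none higher. KIF25, KIF26A and KIF7 are among these 5 and passed the filter only through transfected AD libraries, so their calls follow in part from the filter. KIF12 had 1.17 and 0.82 RPKM in AI mock, against 2.5 and 1.79 RPKM in AD mock cells (log2 difference -0.82, SE 0.24, limma adjusted p = 0.0143), and did not pass under either scaling. Without AI mock replicate 1 the count of higher kinesins was 1, KIF22.

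**Figure D3:**
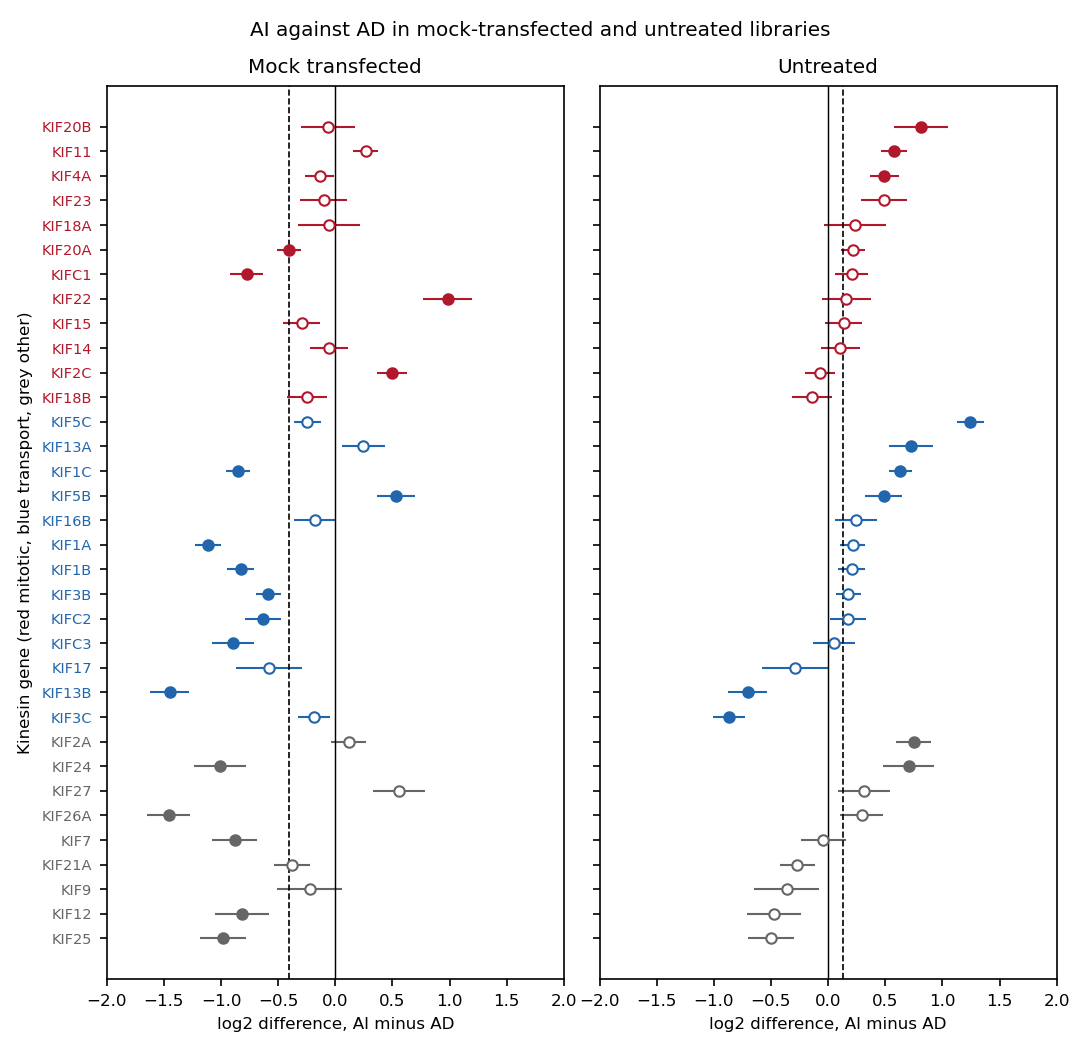
Log2 difference of AI minus AD on the log2(RPKM + 0.5) scale for the 34 tested kinesins in mock-transfected (left) and untreated libraries (right), with bars of 1 SE, n = 2 libraries per group, filled points for limma adjusted p under 0.05 and a dashed line at the median of all genes tested. KIF22 and KIF2C lie to the right of 0 in mock-transfected cells, and KIF1C and KIF5C lie on the other side of 0 in mock-transfected cells than in untreated cells, filled in both for KIF1C and open for KIF5C in the mock panel.

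Partner genes in mock-transfected cells were read in the same way. Of 21 tested transport partners 14 (66.7%) were lower and 1 (4.76%), RHOT1, higher in AI cells, beside 43.5% lower and 12.2% higher among all genes. KLC2, a kinesin-1 light chain, had 6.04 and 4.89 RPKM in AI mock, against 14.54 and 12.59 RPKM in AD mock cells (log2 difference -1.24, limma adjusted p = 5.92e-05). Of the kinesin-1 heavy chains, KIF5B was higher in AI mock cells. KIF5C had 4.7 and 4.97 RPKM in AI mock, against 5.76 and 5.89 RPKM in AD mock cells, and did not pass. KIFBP, which binds several kinesins and keeps them off microtubules, had 8.56 and 8 RPKM in AI mock, against 31.25 and 35.05 RPKM in AD mock cells (log2 difference -1.94, limma adjusted p = 5.11e-06). KIFAP3 had 2.88 and 3.15 RPKM in AI mock, against 6.39 and 5.69 RPKM in AD mock cells (log2 difference -0.89, limma adjusted p = 0.000245), the reverse of its order in untreated cells. Of the mitotic partners 8 of 25 (32.0%) were higher and 5 (20.0%) lower, with a median of 0.25. Of dynein and dynactin genes 4 of 20 were higher and 4 lower (20.0% each), and of the regulators 1 of 11 (9.09%), FOXM1, was higher and 4 (36.4%) were lower (E2F1, E2F2, E2F3 and RB1). FOXM1, an activator of G2 and mitosis genes, had a log2 difference of 0.79 (limma adjusted p = 0.000456).

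The effect of mock transfection itself was compared within each cell state. These comparisons share the mock or untreated libraries with those above, and untreated and transfected libraries also differ in depth and in mitochondrial share, so that transfection and whatever else separated the 2 sets of libraries cannot be told apart. In AI cells 5 of 34 kinesins (14.7%) were higher in mock than in untreated libraries, against 21.5% of all genes, and 10 (29.4%) were lower, against 35.5% of all (either way 15, against 57.1%). The median of all genes was -0.20. Of all calls in AI 37.7% were higher, against 49.5% with quantile normalization, where 9 kinesins were higher and 6 lower, and 49.8% with TMM, where 7 were higher and 6 lower. In AD cells 16 of 34 (47.1%) were higher, against 37.6% of all genes, and none was lower, against 7.73% of all (either way 45.4%). KIF26A, KIF7 and KIFC3, which passed the filter only through transfected AD libraries, are 3 of these 16, and 13 remain without them. The median of all genes was 0.35 there, and 82.96% of all calls were higher, against 51.5% with quantile normalization and 51.9% with TMM. Under these scalings 5 and 7 kinesins were higher and 2 were lower in AD cells.

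KIF22 was higher after mock transfection in both states, by 1.85 in AI (SE 0.21, limma adjusted p = 6.53e-05) and by 1.03 in AD cells (SE 0.21, limma adjusted p = 0.00366), with no overlap of the values given above. KIF2C was higher by 1.39 in AI (SE 0.13, limma adjusted p = 2.08e-05) and by 0.82 in AD cells (SE 0.13, limma adjusted p = 0.000935), the AD call being lost under both scalings. KIF3C had 6.42 and 5.43 RPKM in AI mock, against 1.51 and 1.87 RPKM in untreated AI cells. Its difference of 1.55 (SE 0.14, limma adjusted p = 1.61e-05) stands beside one of 0.87 in AD cells, where it had 7.39 and 6.23 RPKM in mock, against 3.67 and 3.3 RPKM in untreated cells. KIF1C was lower in AI mock than in untreated AI cells (log2 difference -1.21, SE 0.10, limma adjusted p = 1.02e-05), and in AD cells its values did not pass. KIF5C had 4.7 and 4.97 RPKM in AI mock, against 6.64 and 6.63 RPKM in untreated AI cells, and 5.76 and 5.89 RPKM in AD mock, against 2.43 and 2.59 RPKM in untreated AD cells. It was called higher in AD (log2 difference 1.07, SE 0.12, limma adjusted p = 0.000109) and lower in AI (log2 difference -0.42, SE 0.12, limma adjusted p = 0.0124), the AI call being lost under both scalings.

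The difference between these effects was tested as the AI minus AD difference in mock minus that in untreated libraries. Of the 34 kinesins 3 (8.82%) had a higher difference, against 8.99% of all genes, and 15 (44.1%) a lower one, against 41.2% of all (either way 18, against 50.2%), with a median of all genes of -0.54. Calls in the same direction under both scalings were kept by 8 of these 18, KIF22, KIF2C and KIF3C (higher) and KIF24, KIF26A, KIF1A, KIF1C and KIF5C (lower). KIF26A, KIF7 and KIFC3 passed the filter only through transfected AD libraries and are 3 of the 15 lower ones. Their calls follow in part from the filter, and 12 lower ones remain without them. KIF5C and KIF1C each stood at -1.49 (limma adjusted p = 0.000101 for KIF5C and 4.61e-05 for KIF1C), and both were called in each of the 8 fits that left out a library. KIF1A stood at -1.33 (SE 0.16, limma adjusted p = 0.000134). KIF22 and KIF2C were called in only 2 of those 8 fits and KIF3C in 4. Of all calls 17.9% were higher, against 47.5% with quantile normalization and 49.6% with TMM, which counted 4 kinesins higher and 6 lower each.

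The siEZH2 libraries address what EZH2 knockdown does to these RNAs. Few kinesins moved, and the EZH2 RNA itself did not pass the test. In AI cells 3 of 34 kinesins (8.82%) were lower in siEZH2 than in mock libraries, against 1.39% of all genes, and none was higher, against 0.0703% of all (either way 1.46%). KIF11 had 3.11 and 3.05 RPKM in AI siEZH2, against 5.03 and 4.91 RPKM in AI mock cells (log2 difference -0.61, SE 0.11, limma adjusted p = 0.0388). KIF15, which can stand in for KIF11 in spindle assembly, had 0.8 and 0.86 RPKM in AI siEZH2, against 1.9 and 1.85 RPKM in AI mock cells (log2 difference -0.84, SE 0.16, limma adjusted p = 0.0447). KIF21A, which restrains microtubule growth at the cell cortex, had 1.26 and 1.28 RPKM in AI siEZH2, against 2.86 and 2.58 RPKM in AI mock cells (log2 difference -0.86, SE 0.16, limma adjusted p = 0.0387). The groups did not overlap for any of the 3, but these genes were picked by the test on the same values, so this adds no support. None of these calls remained under either scaling, without any 1 of the 4 libraries or in a fit of these groups alone, and 9 of 34 kinesins were at an unadjusted p under 0.05. Of the mitotic partners 5 of 25 were lower, beside the 1.39% of all genes, and none higher.

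In the AD libraries labelled siEZH2 no kinesin passed by limma (1 of 34 at an unadjusted p under 0.05, KIF20A, with 15.69 and 15.81 RPKM in AD siEZH2 against 19.25 and 18.96 RPKM in AD mock cells). Background there was 0.0141% of all genes higher and 0% lower. For KIF11 the AD values were 4.18 and 4.29 RPKM in siEZH2, against 3.93 and 4.18 RPKM in mock cells. The test of whether the siEZH2 effect differed between AI and AD cells called 0 kinesins and 0% of all genes by limma, with 6 of 34 kinesins at an unadjusted p under 0.05, so a difference between the states was not shown. Within the siEZH2 libraries 2 kinesins (5.88%) were higher in AI than in AD cells, against 10.6% of all genes, and 17 (50.0%) were lower, against 47.1% of all (either way 19, against 57.7%), with a median of all genes of -0.48. All 5 kinesins that passed the filter only through transfected AD libraries are among these 17, and 12 remain without them. The higher ones were KIF22, with 132.98 and 137.5 RPKM in AI siEZH2 against 62.44 and 62.26 RPKM in AD siEZH2 cells, and KIF2C, with 67 and 70.6 RPKM in AI siEZH2 against 48.18 and 48.04 RPKM in AD siEZH2 cells. Of all calls 18.4% were higher, against 49.0% with quantile normalization, where 9 kinesins were higher and 7 lower, and 46.4% with TMM, where 6 were higher and 8 lower.

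The RIP libraries ask which RNAs are recovered with EZH2. The labels' protocol gives 1 catalogue and lot number for both the EZH2 antibody and the IgG, and names 2 sequencing systems, paired-end and single-end, without saying which libraries each read, and the part of either in these values was not tested. Of the 40 kinesins listed, 32 passed the same filter among 13667 genes, and the 8 untested ones were KIF4B, KIF21B, KIF25, KIF26A, KIF26B, KIF7, KIF17 and KIFC3. By limma with no replicate term, no kinesin passed for EZH2 against IgG, against a background of 0% of all genes, in AI (13 of 32 at an unadjusted p under 0.05) or in AD cells (9 of 32). The values nevertheless leaned one way, and so did those of all genes. The kinesin median was 1.22 in AI and 1.42 in AD cells, against 0.88 and 0.43 for all genes. Mitochondrially encoded genes held 2.4 to 5.85% of RPKM in EZH2 RIP and 9.26 to 37.79% in IgG libraries, and the part of this in the lean was not tested. Both EZH2 libraries were above both IgG libraries for 19 of the 32 kinesins in AI cells (59.4%), against 45.2% of all genes tested, and for 26 of 32 in AD cells (81.2%), against 31.4% of all genes. These counts were made after the data were seen and carry no test. IgG libraries were shallow, so that 1 read on a transcript of 3 kb is worth 0.18 to 4.09 RPKM there and 0.0409 to 0.0709 RPKM in EZH2 libraries, and a listed 0 in IgG is no measure of absence.

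The 8 kinesins with the highest EZH2 RIP means were KIFC2, KIF22, KIF1A, KIF1B, KIF2C, KIF5B, KIF23 and KIF15. KIFC2 had 20.59 and 59.85 RPKM in AI EZH2 RIP, against 4.47 and 16.84 RPKM in AI IgG, and 14.67 and 40.34 RPKM in AD EZH2 RIP, against 3.69 and 16.86 RPKM in AD IgG. The spread between replicates was as wide as that between antibodies. KIF22 had 17.69 and 31.62 RPKM in AI EZH2 RIP, against 3.5 and 26.37 RPKM in AI IgG, and 24.14 and 47.14 RPKM in AD EZH2 RIP, against 3.85 and 11.19 RPKM in AD IgG. It was thus separate from IgG in AD and overlapped with it in AI cells. KIF1A had 22.32 and 38.64 RPKM in AI EZH2 RIP, against 4.07 and 14.65 RPKM in AI IgG, and 17.69 and 18.42 RPKM in AD EZH2 RIP, against 1.46 and 6.14 RPKM in AD IgG. KIF1B had 27.94 and 23.74 RPKM in AI EZH2 RIP, against 7.15 and 8.23 RPKM in AI IgG, and 23.35 and 20.41 RPKM in AD EZH2 RIP, against 3.93 and 8.68 RPKM in AD IgG. Both EZH2 libraries were above both IgG libraries for these kinesin-3 genes in each state. KIF2C had 16.32 and 19.68 RPKM in AI EZH2 RIP, against 2.52 and 7.6 RPKM in AI IgG, and 19.81 and 29.7 RPKM in AD EZH2 RIP, against 3.33 and 6.17 RPKM in AD IgG. KIF23 had 19.44 and 10.97 RPKM in AI EZH2 RIP, against 5.02 and 0 RPKM in AI IgG, and 23.72 and 16.26 RPKM in AD EZH2 RIP, against 3.45 and 3.46 RPKM in AD IgG. KIF2C and KIF23, both mitotic, were also above IgG in each state. KIF15 had 19.35 and 4.92 RPKM in AI EZH2 RIP, against 4.28 and 0 RPKM in AI IgG, and 28.37 and 9.26 RPKM in AD EZH2 RIP, against 3.81 and 2.07 RPKM in AD IgG. KIF5B had 27.56 and 13.12 RPKM in AI EZH2 RIP, against 11.93 and 14.63 RPKM in AI IgG, and 26.76 and 7.43 RPKM in AD EZH2 RIP, against 14.19 and 12.39 RPKM in AD IgG. It overlapped with IgG in both states, although it is among the most abundant kinesin RNAs.

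**Figure D4:**
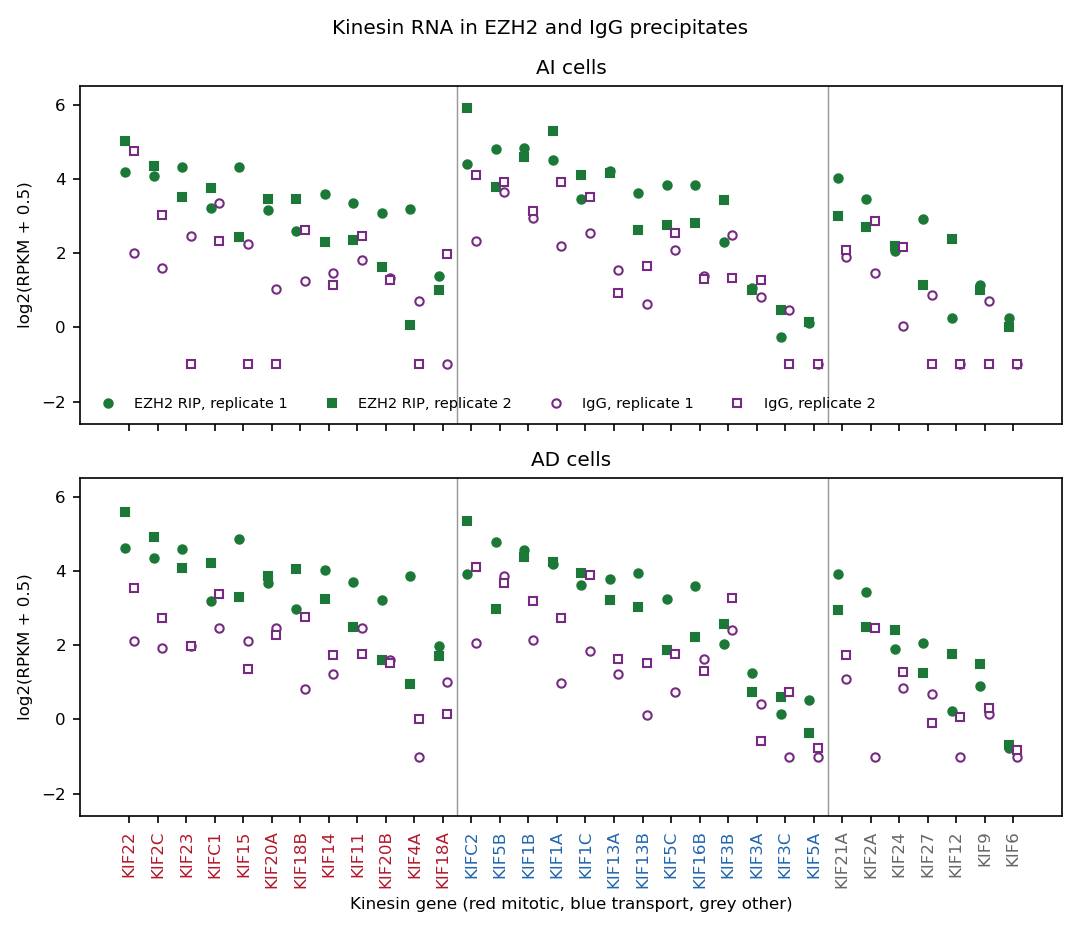
Level of the 32 tested kinesins as log2(RPKM + 0.5) in each EZH2 RIP (filled) and IgG library (open) of AI (top) and AD cells (bottom), with circles for replicate 1 and squares for replicate 2. Both filled points lie above both open points for 19 genes in AI and 26 in AD cells, and open points at the floor of the AI panel are listed at 0 RPKM.

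Levels in EZH2 RIP went with levels in RNA-seq. Across 32 kinesins the level in AI EZH2 RIP and in untreated AI RNA correlated at r = 0.689 (Spearman's rho 0.737), against 0.497 (0.509) across 13632 genes, and across 31 kinesins in AD cells at r = 0.63 (rho 0.676), against 0.487 (0.495) across 13540 genes. Genes are not independent replicates, and both axes share gene length and the filter. The log2 ratio of EZH2 RIP to untreated RNA was higher for genes that span more of the chromosome among kinesins (rho 0.352 in AI and 0.442 in AD cells), as it did across all genes (rho 0.472 in each).

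AI and AD EZH2 RIP were set against each other directly. All 12 tested mitotic kinesins had a value below 0 for AI minus AD, between -0.77 (KIF4A) and -0.07 (KIF20B) with a median of -0.47, as had 12 of 12 under quantile normalization and TMM, and 8 to 11 of them when a library was left out. Of all genes 42.6% were below 0, while all 25 mitotic partners were. The transport kinesins had a median of 0.41. By limma 0 kinesins and 0% of all genes passed this test. None of the 32 kinesins was at an unadjusted p under 0.05, with standard errors of 0.40 to 1.30. The fit had no replicate term, while deviations of same-numbered AI and AD EZH2 RIP libraries correlated at 0.713 across genes. Within replicate 1 and within replicate 2, AI was lower than AD for 10 of 12 mitotic kinesins (83.3%), 2 of 13 transport kinesins (15.4%), none of 7 others and 25.1% of all genes. AI was higher within both for none of the mitotic kinesins, 8 of the transport kinesins (61.5%) and 37.4% of all genes. KIF14, with 11.56 and 4.42 RPKM in AI EZH2 RIP against 15.85 and 8.89 RPKM in AD EZH2 RIP, and KIF13A, with 18.06 and 17.19 RPKM in AI EZH2 RIP against 13.25 and 8.81 RPKM in AD EZH2 RIP, are examples of the 2 patterns, chosen after their values were seen. In untreated RNA, KIF14 had 0.63 and 0.62 RPKM in AI, against 0.49 and 0.6 RPKM in AD cells. In siEZH2 libraries it had 0.32 and 0.46 RPKM in AI, against 0.72 and 0.61 RPKM in AD cells. The part of the RNA level in these RIP values was not tested. Whether EZH2 recovery as such differed from IgG differently in the 2 states was tested too, and no kinesin and 0% of all genes passed by limma, also with quantile normalization and with TMM.

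The deposited EZH2 and H3K27me3 peak lists were searched at kinesin promoters. Within 2500 bases of a RefSeq start, known for 33 of the 41 genes, the AI list of EZH2 peaks had a peak at 1 kinesin (3.03%), KIF20A, against 3.58% of 15843 genes, at chr5:138176214-138176836 in GRCh38, upstream of the promoter shown above. The AD replicate 1 list had peaks at 8 (24.2%: KIF1A, KIF22, KIF23, KIF26A, KIF2C, KIF3C, KIF4B and KIF9), against 18.8% of genes, and the AD replicate 2 list at 4 (12.1%: KIF14, KIF25, KIF26A and KIF9), against 5.83%. Only KIF26A and KIF9 were in both AD lists, which is 2 of 8 and 2 of 4. KIF9 RNA was present at 0.86 to 2.37 RPKM. The AD replicate 1 list held 53911 peaks, against 12399 in AD replicate 2 and 11933 in AI, so the counts follow the lengths of the lists in part.

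For H3K27me3, AI replicate 1 had a peak at 1 kinesin start, against 9.89% of genes, AI replicate 2 at 4 (KIF17, KIF1A, KIF26A and KIF4B), against 18.5%, AD replicate 1 at 1, against 1744 of the 15843 genes, and AD replicate 2 at 1, against 12.4%. The gene in all 4 lists was KIF4B, where AI replicate 2, for example, had peaks at chr5:155011704-155014019, over the promoter, and chr5:155014599-155017479. Its RNA was at or below 0.03 RPKM in all 12 libraries, and its promoter holds TTTGAA and CCAAT. The near-identical parent gene KIF4A, with no such peak, had 4.42 to 10.25 RPKM. Whether the mark has a part in the low KIF4B RNA was not tested. Reads of these copies can be hard to assign, so the KIF4B values are uncertain. Over whole gene bodies, 5 of 41 kinesins (12.2%) had H3K27me3 peaks in all 4 lists, against 12.6% of 20056 genes. They were KIF26B, KIF4B, KIF5A, KIF6 and KIFC3. KIF26B, a kinesin-like protein of developmental cell adhesion, had 63844 and 43765 bases covered in AI, against 99848 and 98450 bases in AD cells. KIF5A had 14190 and 7313 bases covered in AI, against 5674 and 3475 bases in AD cells, and KIF6 had 19771 and 17505 bases in AI, against 8562 and 2504 bases in AD cells. KIFC3, a minus-end motor of cell junctions, had 17827 and 10722 bases covered in AI, against 7000 and 10815 bases in AD cells. KIF4B had 3285 and 3146 bases covered in AI, against 3055 and 3111 bases in AD cells. The AI and AD values did not overlap for 4 of the 5 (all but KIFC3), as for 53.9% of all genes with peaks in the 4 lists. KIF26B, KIF4B, KIF5A and KIF6 are among the 6 kinesins below 0.5 RPKM in every RNA-seq library, and KIFC3 reached 0.77 RPKM at most. KIF21B, also among these 6 at 0.11 RPKM or less, had no H3K27me3 peak over its gene body in any list.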

How the data were processed

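RNA-seq and RIP values are RPKM as the authors deposited them, with 2 decimals, and were used without rescaling. Per the submitters' processing notes, TopHat2 and edgeR were used for both RNA assays, cutadapt also for RNA-seq and for ChIP, and Bowtie2 for ChIP, on the build GRCh38, with no versions. How reads were counted, and whether by strand, is not given in the sources used here. The deposited ChIP peak lists give a score per peak, the authors' own value, from 1 ChIP sample each, and served here only for the upper 50% of each list. The 7 ChIP inputs were not analysed separately.

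Groups and replicate numbers came from the sample titles. RPKM were tested on log2(RPKM + 0.5) with limma 3.58.1 (R 4.3.3) with an intensity trend, 1 fit over the 12 RNA-seq libraries and 1 over the 8 RIP libraries, on genes with at least 0.5 RPKM in at least 2 libraries. The p-values are two-sided and Benjamini-Hochberg adjusted over all genes tested, with a threshold of 0.05, and fold changes on this scale understate changes of low genes. The limma code was tested on simulated data. Depth was estimated from the smallest step between low values shared by at least 3 short genes within 3%. That rule was chosen after estimates had been seen, and those of AD untreated replicate 2 and AI IgG replicate 1 were larger under an earlier rule. Peaks were counted with at least 1 base of overlap within 2500 bases of a RefSeq start. Python 3.11.15, pandas 2.3.3, numpy 2.4.6 and matplotlib 3.10.9 were used.

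The kinesins, their roles and the partner lists were chosen with earlier results of these data known, so their counts are descriptions. Named with values in every sample were the called genes with a mean of at least 1 RPKM in untreated and in mock AI against AD (at most 6 mitotic, 6 transport and 4 other, by size), KIF11, KIF20A, KIF23, KIF5B and KIF3B in any case, and the 8 highest in EZH2 RIP. Alternatives were pseudocounts of 0.1 and 1, no filter, quantile normalization, TMM, a replicate block, leaving out each library, fitting groups alone and other peak windows. Protein sequences were not used here.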

Additional observations from a re-analysis of the deposited data

Results flagged for a closer look

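The AI minus AD difference itself differed between mock-transfected and untreated libraries (limma adjusted p under 0.05 for the difference of differences) for 18 of 34 kinesins, against 50.2% of all genes and with a median of all genes of -0.54, so the count is near the background. It was higher after mock transfection for KIF22 (0.82), KIF3C (0.68) and KIF2C (0.57). It was lower for the mitotic genes KIF20A (-0.62), KIF4A (-0.63) and KIFC1 (-0.98). Among transport kinesins it was lower for KIF13B (-0.75), KIF3B (-0.77), KIFC2 (-0.80), KIFC3 (-0.95), KIF1B (-1.03), KIF1A (-1.33), KIF1C (-1.49) and KIF5C (-1.49). Among the others it was lower for KIF2A (-0.63), KIF7 (-0.84), KIF24 (-1.71) and KIF26A (-1.75). The values of KIF20A, KIF4A and KIF2A lie within 0.1 of the median of all genes, and KIF7, KIFC3 and KIF26A passed the filter on low values only through transfected AD libraries. The mitochondrially encoded share and the depth move with transfection, and their part in these values was not tested. Groups of 2 libraries were too small to look for single outlying samples.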

How the results depend on the processing

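Counts of called kinesins changed with the scaling between libraries and with the libraries fitted. With quantile normalization the mock comparison of AI with AD had 10 higher and 5 lower, the siEZH2 comparison of AI with AD 9 and 7, mock against untreated 9 and 6 in AI and 5 and 2 in AD cells, and the difference of differences 6 lower. With TMM the mock comparison had 8 higher and 9 lower, the siEZH2 comparison 6 and 8, mock against untreated 6 lower in AI and 7 higher and 2 lower in AD cells, and the difference of differences 6 lower. The 3 lower kinesins of siEZH2 against mock in AI became 0 under quantile normalization, TMM and a fit of the groups alone, and 1 without a filter, where the difference of differences had 1 higher. A fit of the groups alone left 1 higher and 0 lower in untreated cells and 3 higher and 6 lower in mock against untreated AI cells.

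Leaving out 1 library at a time gave 4 to 8 higher and 1 to 2 lower in untreated cells, 1 to 3 higher in mock and in siEZH2 cells for AI against AD, and 0 to 0 lower in siEZH2 against mock in AI. It gave 3 to 4 higher and 6 to 9 lower in mock against untreated AI cells, 0 to 2 higher in the difference of differences, and 0 to 3 higher in AI EZH2 RIP against IgG, the 3 without AI IgG replicate 1. A lone library left in a group is assumed to vary like the other groups.

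Directions turned with scaling for KIF20A in mock AI against AD (0.110, TMM). In siEZH2 AI against AD they turned for KIF11 (0.289 quantile, 0.0842 TMM), KIF12 (0.12 quantile), KIF20A (0.35 quantile, 0.47 TMM) and KIF5B (0.53 TMM). In AD mock against untreated KIF3B turned to -0.44 (quantile) and -0.37 (TMM). In the difference of differences KIF4A (0.0734 quantile, 0.0128 TMM), KIF13B (0.0467 quantile), KIF20A (0.0498 TMM) and KIF2A (0.00743 TMM) turned. The cause was not tested. Alternatives were followed for the called kinesins of each comparison and for KIF11, KIF20A, KIF23, KIF5B and KIF3B in any case. Under settings other than leaving out a library, 856 of these values stayed on the same side of the threshold and 125 lost the call. Values called in neither fit count among the 856, whatever their direction, so this count is no measure of how many calls held.

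The labels do not say that a replicate number marks a shared culture or day. Deviations of same-numbered libraries correlated between -0.004 and 0.713 over 21 pairs of groups. They were highest between AI and AD EZH2 RIP (0.713) and between untreated AI and AD RNA (0.701). These groups are compared directly above with no replicate term, so the standard errors there include spread shared by replicate number. With a replicate block EZH2 RIP against IgG called 7 of 32 kinesins higher in AI, against 9.45% of all genes in that fit, and 3 in AD cells, against 3.45%, where the fit without it called 0 kinesins and 0% of all genes. The block moved no other count of calls by more than 1.5 times.

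Peaks at kinesin starts changed with the window. In AD replicate 1 the 8 with EZH2 peaks became 4 with the upper 50% of scores, 3 within 1000 bases, 3 with 500 bases of overlap and 27 over gene bodies (46.9% of all genes there). In AD replicate 2 the 4 became 2, 1 (1000 bases) and 18 (gene bodies, 22.0% of all), and in AI the 1 became 0 under the first 3 and 10 over gene bodies (20.4% of all). H3K27me3 peaks over gene bodies touched 7 and 14 of 41 kinesins in AI (20.4 and 25.2% of all genes) and 7 and 6 in AD cells (19.3 and 20.4% of all genes). Shallow IgG libraries limit what RIP can show for low kinesins.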

Other observations

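Among the tested kinesins 7 passed in none of the 9 RNA comparisons. They were the mitotic KIF14 (0.32 to 0.9 RPKM over the 12 libraries), KIF18A (0.29 to 1.07 RPKM), KIF18B, a depolymerase of astral microtubules (1.89 to 2.96 RPKM), and KIF23 (3.72 to 7.26 RPKM), the endosome motor KIF16B (0.95 to 1.89 RPKM), and KIF9 (0.86 to 2.37 RPKM) and KIF27 (0.14 to 0.86 RPKM), both linked to motile cilia. A value that did not pass does not show that these levels were the same.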
